A study of Bos taurus with 12 samples.

Results

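The products of 10 genes that make NAD, exchange its reducing power or consume it were followed as RNA in the right ventricle of cattle. They were taken by symbol from a table of 24616 genes and each matched 1 row: ITGB1BP3, NAMPT, NMNAT1, NMNAT3, NNT, SIRT1, SIRT3, SIRT5, PARP1 and BST1. ITGB1BP3 is an older symbol of NMRK2, nicotinamide riboside kinase 2. It was chosen by its RPKM values, low in the animals with pulmonary hypertension, so these are described here and carry no test.

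The tissue came from 12 Angus steers of wild-type genotype, born male and castrated at weaning, 1 library per animal. All animals were raised for 15 months at 2170 m and slaughtered at 13 to 15 months of age, as the labels put it, so chronic hypoxia was shared by every group and no low-altitude control is among them. Right heart catheterization and clinical signs divided them into 6 steers with low pulmonary artery pressure (low PAP), 3 with pulmonary hypertension that were rated healthy (PH-healthy), and 3 with pulmonary hypertension and right heart failure (PH-failure). Whole-tissue RNA was sequenced, so fewer cells of a type and less RNA per cell cannot be told apart.

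NAD carries electrons between the pathways that burn fuel, and it is also a substrate that signalling enzymes split into nicotinamide and ADP-ribose. Cells rebuild it mainly from recycled nicotinamide, through NAMPT, or from nicotinamide riboside, through the riboside kinases; both routes give nicotinamide mononucleotide, which the NMNAT enzymes turn into NAD. Heart muscle depends on mitochondrial oxidation and holds a large pool of NAD in its mitochondria, where SIRT3 and SIRT5 use it and NNT passes its hydride to NADP.

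Levels are given as RPKM, the reads of a gene divided by its exon length and by the mapped reads, which corrects for gene length, so that genes can be compared with each other within a library. The shallowest library, of PH-failure replicate 1, held 14739237 mapped reads and the deepest, of low PAP replicate 5, held 31090198. Differences are on the log2(RPKM + 1) scale, which understates changes of low genes, and were tested with limma in 1 model of the 3 groups. Of the members, 9 reached 1 RPKM in at least 3 libraries, as 11374 genes of the table did, and BST1 did not. A gene was called at a Benjamini-Hochberg adjusted p under 0.05 over all genes tested. The median of all genes tested lay at 0.21 in PH-failure and 0.18 in PH-healthy against low PAP, and differences are best read against it. With that scale 3190 genes were called higher and 658 lower in PH-failure, and 3024 and 927 in PH-healthy. After quantile normalization the splits were 1141 higher and 1419 lower, and 1445 higher and 1596 lower.

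PH-failure replicate 3 stood apart from the other libraries. Its summed RPKM over 10 ventricular muscle markers was 49134, against 66732 to 85276 in the other 11. MYL2, at a mean of 26864 over the 12 libraries, weighed most in this sum, and not every marker was low. The PH-failure minimum lay below that of low PAP for MB (5390 against 13008.5), MYL3, TNNI3, MYBPC3, PLN and TNNT2. It lay above for MYL2 (18793 against 18096), MYH7, ACTN2 and RYR2. ACTN2 had 792 to 804 in the 3 PH-failure libraries, above low PAP at 615 to 758. TNNT2 had 7800 to 8784 in PH-failure and 7727 to 9073 in PH-healthy. In PH-failure against low PAP limma called 3 of the 10 markers lower and 0 higher. The adipocyte marker sum of PH-failure replicate 3 was 1576, against 259 to 545, and its macrophage sum was 128, against 29.6 to 74.3. FABP4 and LPL weighed most in the adipocyte sum. FABP4 reached 949 RPKM in PH-failure and 173 in low PAP, ADIPOQ 70.5 and 51.3, and PLIN1 13.3 and 9.03. LPL reached 535 and 528, and CIDEC 8.44 and 9.76. The mean log2 level of the adipocyte markers was 6.44 in replicate 3 and 2.40 to 5.61 in the other libraries. Several results that rest on PH-failure replicate 3 are given with and without it, and others only with it. Mitochondrially encoded RNA took 22.5% to 29.9% of exon reads in the low PAP libraries. In the 6 with pulmonary hypertension it took 17.8% to 20.7%, with no overlap. Its part in the results was not tested.

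ITGB1BP3 was far more abundant than the other members in low PAP and lower in every animal with pulmonary hypertension. The gene (ENSBTAG00000031573; chromosome 7, 21290812 to 21294189, in the positions of the deposited table, genome build: not given in the sources used here) encodes the riboside kinase of striated muscle, first described as a protein that binds the cytoplasmic tail of integrin beta 1. Its RPKM in low PAP replicates 1 to 6 was 583, 1169, 1220.1, 1395, 1044 and 638. In PH-healthy it was 182, 302 and 314, and in PH-failure 379.9, 284 and 29.2. The lowest low PAP library was thus above the highest library with pulmonary hypertension, and PH-failure replicate 3 lay far below all the rest. Such a separation, low PAP above the other group, held for 9.3% of all genes tested in PH-healthy, for 3.74% in PH-failure and for 2.93% over all 6 animals. The summed RPKM of 3 atrial muscle markers separated the same way, at 3085 to 6775 in low PAP and 425 to 1837 with pulmonary hypertension. Nearly all of it was MYL7, the atrial myosin light chain, at means of 4812, 652 and 899.9, whereas NPPA, the atrial natriuretic peptide, had 33.6, 65.2 and 96.3; the part of atrial muscle in the result was not tested.

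The group means were 1008 ± 329 (SD, n = 6) in low PAP, 266 ± 73.4 (SD, n = 3) in PH-healthy and 231 ± 181 (SD, n = 3) in PH-failure, or 332 in PH-failure without replicate 3. On the log2 scale ITGB1BP3 was 1.89 lower in PH-healthy (fitted difference -1.89, SE 0.63) and 2.69 lower in PH-failure (-2.69, SE 0.63) than in low PAP. Without PH-failure replicate 3 the PH-failure difference was -1.54. With replicate 3 included, no other gene tested had a lower difference in PH-failure, and this place was not computed without it. In PH-healthy 0.0879% of genes had a lower difference. The gene was chosen for its low values, so these places carry no test. The difference between PH-failure and PH-healthy was -0.80 (SE 0.73) with replicate 3 and 0.35 without it, so the order of these groups rested on 1 library. Between 398 and 20395 reads lay behind each value, so counting error is small beside the spread between animals.

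By rank among all genes of a library, ITGB1BP3 stood between 64 and 151 in low PAP, between 236 and 392 in PH-healthy, and at 230, 262 and 2098 in PH-failure. Within the libraries of series 55 and of series 56, as the library codes in the column headers number them, the difference of PH-healthy from low PAP, on the log2 scale of the means, was -1.65 and -2.52. For PH-failure it was -5.00 in series 55, where replicate 3 is its only library, and -1.66 in series 56. The authors' deposited table, whose means differ from those of these libraries, gave ITGB1BP3 a fold of -3.38 between means of 1018 and 302 RPKM. That fold describes the contrast for which the gene was chosen, so it is no separate support and its significance value is not given.

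**Figure D1:**
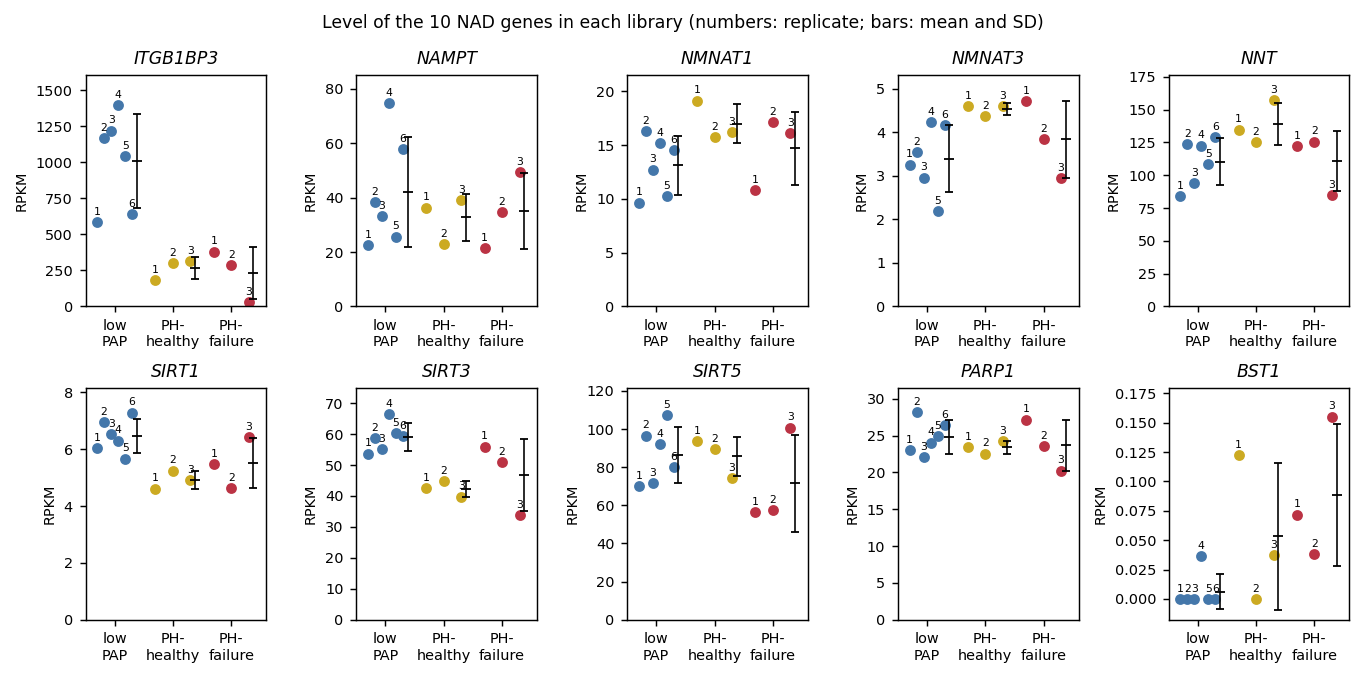
Level of the 10 genes in each library. The vertical axes are RPKM and differ between panels, points are libraries numbered by replicate in the low PAP, PH-healthy and PH-failure groups, and bars are the group mean and SD; the 6 ITGB1BP3 points with pulmonary hypertension, at most 379.9, lie below all 6 low PAP points, at least 583.

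NAMPT, the rate-limiting enzyme that recycles nicotinamide (chromosome 4, 47597859 to 47635332), did not pass the test in any comparison. Its RPKM in low PAP was 22.7, 38.4, 33.3, 74.9, 25.7 and 57.8. PH-healthy had 36.3, 23.02 and 39.2, and PH-failure 21.5, 34.6 and 49.3. All 3 groups overlapped, and the low PAP libraries alone spanned the range from 22.7 to 74.9. The log2 difference from low PAP was -0.26 (95% interval -1.02 to 0.51; limma adjusted p = 0.590) in PH-healthy and -0.20 (95% interval -0.97 to 0.56; adjusted p = 0.670) in PH-failure. The width of these intervals reflects the spread between animals. NAMPT had the largest relative spread among the 9 members tested in low PAP, a coefficient of variation of 48.2%, against 32.6% for ITGB1BP3 and 7.63% for SIRT3.

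Set against each other within a library, the riboside kinase outweighed NAMPT in every library but 1. The ratio of ITGB1BP3 to NAMPT by RPKM was 11.03 to 40.7 in low PAP, with a mean of 27.2 ± 11.1 (SD, n = 6). In PH-healthy it was 5.00, 13.1 and 8.02, and in PH-failure 17.6, 8.23 and 0.592. Low PAP replicate 6, at 11.03, lay within the range of the animals with pulmonary hypertension, so the ratio overlapped where ITGB1BP3 itself did not.

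**Figure D2:**
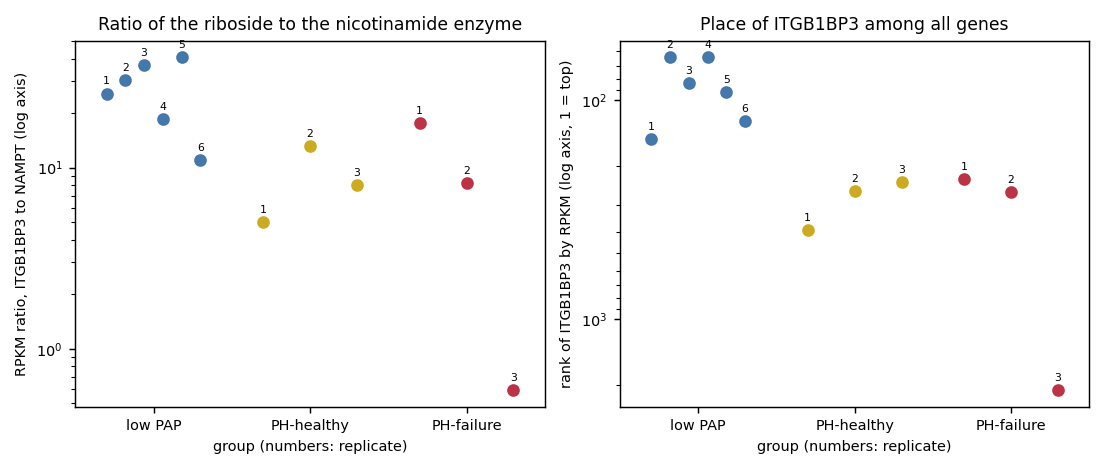
Left, RPKM ratio of ITGB1BP3 to NAMPT on a log axis; right, rank of ITGB1BP3 among all genes of its library by RPKM on a log axis with the top gene uppermost; points are libraries numbered by replicate. PH-failure replicate 3 has a ratio of 0.592 and rank 2098, and the other 11 libraries have ratios of 5.00 or more and ranks of 392 or better.

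The NMNAT enzymes, which finish NAD by adding adenylate, did not pass the test in any comparison. NMNAT1, the nuclear enzyme (chromosome 16, 44457294 to 44462940), had 13.1 ± 2.71 RPKM (SD, n = 6) in low PAP. In PH-healthy it had 19.1, 15.7 and 16.2, and in PH-failure 10.8, 17.1 and 16.1. Low PAP reached 16.3, so all groups overlapped. The difference in PH-healthy was 0.37 (SE 0.18; limma adjusted p = 0.122), or 0.15 with median-ratio scaling, and in PH-failure 0.15 (SE 0.18; adjusted p = 0.521).

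NMNAT3, assigned to mitochondria (chromosome 1, 130495597 to 130518088), was a low gene, with 49 to 94 reads per library. Its RPKM was 2.19 to 4.23 in low PAP, 4.61, 4.37 and 4.61 in PH-healthy, and 4.71, 3.84 and 2.95 in PH-failure. The PH-healthy libraries lay above all low PAP libraries, as held for 25.0% of all genes tested; in PH-failure the share was 18.6%, and NMNAT3 overlapped. The difference in PH-healthy was 0.35 (SE 0.16; limma adjusted p = 0.105), or 0.16 with median-ratio scaling and 0.052 after quantile normalization, and in PH-failure it was 0.14 (SE 0.16; adjusted p = 0.503). The ratio of NMNAT1 to NMNAT3 was 3.94 ± 0.691 (SD, n = 6) in low PAP and 3.76 ± 0.348 (SD, n = 3) in PH-healthy, within the spread of low PAP. In PH-failure it was 2.30, 4.46 and 5.47, where low PAP ran from 2.97 to 4.68. Replicate 1 thus lay below and replicate 3 above the low PAP range.

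NNT, the inner-membrane transhydrogenase that makes mitochondrial NADPH from NADH (chromosome 20, 31171387 to 31258005), was the second most abundant member. It had 84.2 to 129 RPKM in low PAP, 135, 125 and 157 in PH-healthy, and 122, 126 and 84.8 in PH-failure. The difference was 0.34 (SE 0.16; limma adjusted p = 0.120) in PH-healthy and 0.00 (SE 0.16; adjusted p = 0.990) in PH-failure, or 0.18 without PH-failure replicate 3. PH-failure lay 0.34 below PH-healthy (difference -0.34, 95% interval -0.75 to 0.07). This difference was -0.16 without PH-failure replicate 3 and -0.12 with a term for adipocyte marker levels in the model.

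Among the NAD-consuming sirtuins, SIRT1 and SIRT3 fell in PH-healthy. They were the only 2 of the 8 members tested, ITGB1BP3 aside, to be called there, both lower; limma called 8.15% of all genes lower and 26.6% higher in that comparison, 34.7% in all. In PH-failure 0 of the 8 were called, against 33.8% of all genes, 28.0% higher and 5.79% lower, and SIRT3 alone had an unadjusted limma p under 0.05; limma-voom on the recovered reads called 3, SIRT1, SIRT3 and SIRT5. Over all 6 animals with pulmonary hypertension, SIRT1 and SIRT3 were again called lower, against 10.4% of all genes called lower, 37.3% higher and 47.7% in all.

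SIRT3, the main mitochondrial deacetylase (chromosome 11, 107167130 to 107189741), varied little among low PAP animals, at 53.7, 58.8, 55.1, 66.5, 60.4 and 59.4 RPKM. In PH-healthy it had 42.4, 44.9 and 39.8, and in PH-failure 55.9, 50.8 and 33.8. All 3 PH-healthy libraries lay below every low PAP library, as held for 9.3% of all genes tested, whereas PH-failure replicate 1 lay inside the low PAP range. The fall in PH-healthy was -0.47 (SE 0.14; limma adjusted p = 0.0230). The difference in PH-failure was -0.35 (SE 0.14; adjusted p = 0.0644), and -0.14 without replicate 3 (adjusted p = 0.355). With all 6 animals with pulmonary hypertension it was -0.41 (SE 0.11; adjusted p = 0.0111), and -0.30 without PH-failure replicate 3 (adjusted p = 0.0114). The PH-healthy call was lost without PH-healthy replicate 1 (adjusted p = 0.0735) or replicate 3 (0.0848). The authors' deposited comparison pooled both groups with pulmonary hypertension against low PAP. There SIRT3 had a fold of -1.30 with a false discovery rate of 0.00416. It draws on the same series, so it is no separate support.

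SIRT1, the nuclear deacetylase (chromosome 28, 24556239 to 24582756), was a lower gene than SIRT3, with 6.04, 6.94, 6.53, 6.30, 5.67 and 7.28 RPKM in low PAP, 4.61, 5.24 and 4.91 in PH-healthy, and 5.49, 4.64 and 6.41 in PH-failure. The PH-healthy libraries lay below all low PAP libraries, as held for 9.3% of all genes tested, and PH-failure overlapped low PAP. SIRT1 fell by 0.33 in PH-healthy (difference -0.33, SE 0.11; limma adjusted p = 0.0377) and by 0.27 over all animals with pulmonary hypertension (-0.27, SE 0.09; adjusted p = 0.0303). In PH-failure it was -0.20 (SE 0.11; adjusted p = 0.174), which became -0.50 after quantile normalization (adjusted p = 0.00597) and -0.43 after median-ratio scaling (0.00963). The PH-healthy call lay near the threshold: it was lost without any 1 of the 3 PH-healthy libraries or of low PAP replicates 2, 3, 4 and 6, at adjusted p between 0.0508 and 0.142. With the adipocyte score, the mean log2 level of the adipocyte markers in a library, in the model the difference was -0.30 and no longer called (limma adjusted p = 0.139). In the authors' deposited comparison, which pooled both groups with pulmonary hypertension, SIRT1 had a fold of -1.26. Its false discovery rate was 0.917, so it did not pass there.

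SIRT5, which removes succinyl and malonyl groups from mitochondrial proteins (chromosome 23, 42803989 to 42826344), had a fitted difference near 0 in PH-healthy and differed among the PH-failure animals. Its RPKM was 70.2 to 108 in low PAP and 93.9, 89.3 and 74.3 in PH-healthy, a difference of 0.00 (95% interval -0.41 to 0.42; limma adjusted p = 0.997). In PH-failure replicates 1 and 2 had 56.4 and 57.4, below every other library, and replicate 3 had 100.8. The PH-failure difference was -0.31 (SE 0.19; adjusted p = 0.223) with all 3 libraries. Without replicate 3 it was -0.58 (adjusted p = 0.0408), and with median-ratio scaling of all libraries -0.57 (adjusted p = 0.0316). Replicate 3 is also the only PH-failure library of series 55, where the difference from low PAP was 0.22, against -0.59 in series 56.

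The mitochondrial sirtuins were also set against each other within each library. The ratio of SIRT5 to SIRT3 by RPKM was 1.30 to 1.78 in low PAP and 2.21, 1.99 and 1.87 in PH-healthy, above all low PAP libraries. The ratio reuses the SIRT3 values, already below low PAP in PH-healthy, so it is no separate result. In PH-failure it was 1.01, 1.13 and 2.98, so that replicates 1 and 2 lay below and replicate 3 above the low PAP range. The ratio of SIRT3 to SIRT1 was 9.19 ± 1.12 (SD, n = 6) in low PAP and 8.63 ± 0.548 (SD, n = 3) in PH-healthy, within the spread of low PAP. In PH-failure it was 10.2, 11.0 and 5.27, where low PAP ran from 8.15 to 10.7. Replicate 2 thus lay above and replicate 3 below the low PAP range.

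PARP1, the DNA-damage polymerase that builds poly(ADP-ribose) from NAD (chromosome 16, 30119201 to 30160574), did not pass the test in any comparison on the deposited scale. It had 24.8 ± 2.25 RPKM (SD, n = 6) in low PAP, 23.4 ± 0.880 (SD, n = 3) in PH-healthy and 27.2, 23.6 and 20.2 in PH-failure. The difference was -0.08 (95% interval -0.31 to 0.16; limma adjusted p = 0.618) in PH-healthy and -0.07 (95% interval -0.31 to 0.17; adjusted p = 0.636) in PH-failure. Median-ratio scaling, which moves the median of all genes to -0.01, gave -0.30 (adjusted p = 0.0454) and -0.33 (adjusted p = 0.0360).

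BST1, a surface NAD glycohydrolase of myeloid and stromal cells (chromosome 6, 115687876 to 115716694), was barely detected. It had 0 reads in 5 of the 6 low PAP libraries and 1 in replicate 4, 3, 0 and 1 reads in PH-healthy, and 1, 1 and 4 in PH-failure. Its highest RPKM was 0.155, in PH-failure replicate 3, near the floor of 3 reads per kilobase, which is 0.0965 to 0.204 RPKM in these libraries. No difference can be read at this depth, and none was tested.

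**Figure D3:**
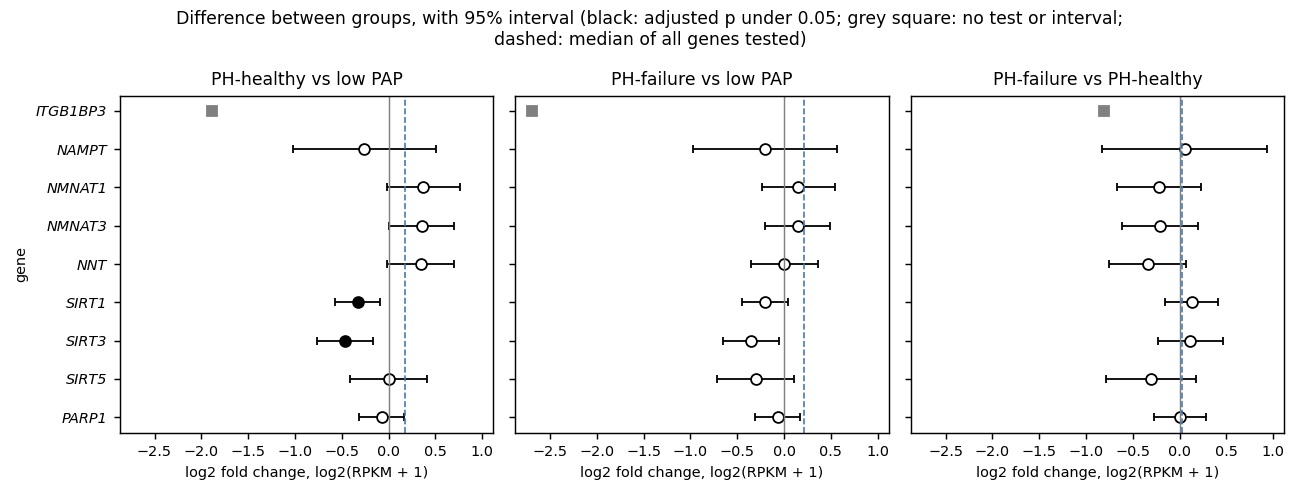
Differences of the 9 tested members in 3 comparisons, on the log2(RPKM + 1) scale with 95% intervals; filled points passed the adjusted test, the grey square is ITGB1BP3, which has no test, and the dashed line is the median of all genes tested. SIRT1 at -0.33 and SIRT3 at -0.47 in PH-healthy are the only filled points.

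Between PH-failure and PH-healthy 0 of the 8 members were called by limma (0 with an unadjusted p under 0.05, and 0 by limma-voom), in a comparison where 0.00879% of all genes, a single gene, were called, 0.0% higher. Without PH-failure replicate 3, 0 of the 8 were called and 2, SIRT3 and SIRT5, had an unadjusted limma p under 0.05. The intervals of the difference reached from -0.83 to 0.94 for NAMPT and from -0.27 to 0.28 for PARP1, the widest and the narrowest of the 8. Against the median of all genes, 8 of the 8 members lay below it in PH-failure against low PAP, and 5 below and 3 above in PH-healthy. The median of the 8 differences was -0.14 in PH-failure, beside 0.21 for all genes tested, and -0.04 in PH-healthy, beside 0.18. The comparisons share the low PAP libraries and are not independent.

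In level the 9 members tested spanned from ITGB1BP3 at 1008 RPKM in low PAP to NMNAT3 at 3.39. NNT, with a mean of 110.2, overlapped SIRT5, at 86.4. SIRT5 lay above SIRT3, at 59.0, in each of the 6 libraries, and SIRT3 overlapped NAMPT, at 42.1, which overlapped PARP1, at 24.8. NMNAT1 at 13.1, SIRT1 at 6.46 and NMNAT3 at 3.39 followed, each apart from the next in its range over low PAP libraries.

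The genes whose pattern over the 12 libraries was most like that of ITGB1BP3 were high in low PAP and lowest in PH-failure replicate 3. Among 10713 tested genes with a symbol, ranked by Pearson correlation of log2(RPKM + 1), the 6 highest were MB (r = 0.979), PXMP2 (0.975), POLDIP2 (0.970), CYC1 (0.964), PIGP (0.963) and LRRC51 (0.962). MB is myoglobin, the oxygen store of muscle, and is also among the ventricular muscle markers summed above. CYC1 is a subunit of respiratory complex III. Myoglobin had 13008.5 to 16678 RPKM in low PAP, 9996 to 10791 in PH-healthy and 5390.4 to 12843 in PH-failure. The libraries share group, depth and tissue make-up, and within the 6 low PAP libraries the r of MB was 0.799. Without PH-failure replicate 3 the r of these 6 genes ran from 0.933 to 0.951. The 4 most opposite genes were ERCC6L2 (r = -0.972), DPYD (-0.970), GARS (-0.962) and TSG-6 (-0.961). Without PH-failure replicate 3 their r ran from -0.946 to -0.904.

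Of the members, SIRT3 was closest to ITGB1BP3, with r = 0.898 at rank 138 of 10713. PARP1 had 0.566 and SIRT1 0.328. The other 5 lay between -0.39 (NMNAT1) and 0.15 (NNT), with NAMPT at -0.01. These values describe 12 libraries in 3 groups, 1 of them apart from the rest, and carry no test. They are not given without PH-failure replicate 3.

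**Figure D4:**
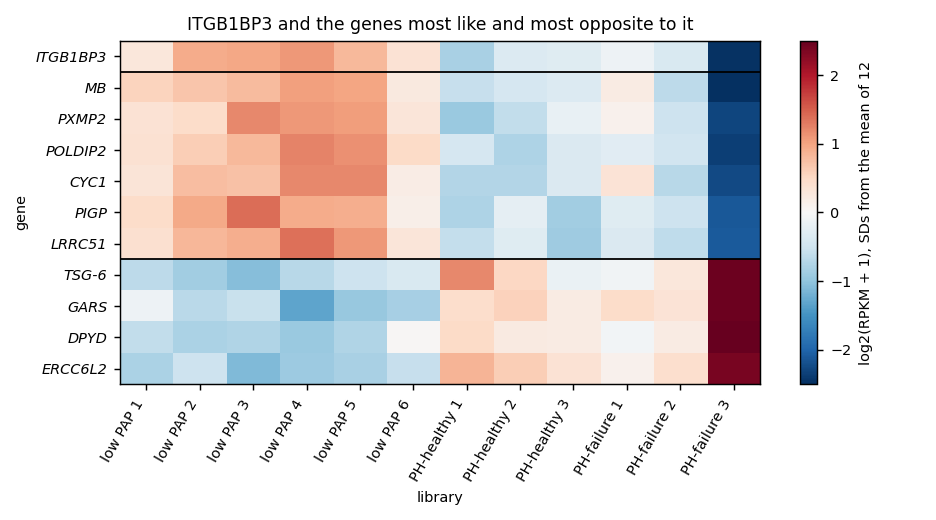
ITGB1BP3, the 6 tested genes most like it and the 4 most opposite to it over the 12 libraries. Colour is log2(RPKM + 1) in SDs from the gene's mean over the libraries; the 7 genes above the lower line have their highest value in a low PAP library and all reach their lowest value in PH-failure replicate 3.

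The other genes of NAD synthesis were mostly not called, and those called were lower. Of 22 listed, 13 were tested: 1 fell and 0 rose in PH-failure, where 5.79% of all genes were called lower and 28.0% higher, and 2 fell and 0 rose in PH-healthy, where the shares were 8.15% and 26.6%. NAPRT, which starts NAD synthesis from nicotinic acid, fell from 15.2 ± 3.05 RPKM (SD, n = 6) to 9.16 ± 1.12 (SD, n = 3) in PH-healthy (difference -0.65; limma adjusted p = 0.0204) and to 9.10 ± 3.13 (SD, n = 3) in PH-failure (-0.70; adjusted p = 0.0170). Without PH-failure replicate 3 the latter was -0.55 (adjusted p = 0.0877). PNP, a phosphorylase that also splits nicotinamide riboside, fell from 208 ± 32.4 to 140.4 ± 14.2 in PH-healthy (-0.56; adjusted p = 0.00814) and had 189 ± 10.9 in PH-failure (-0.13; adjusted p = 0.452).

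NMRK1, the widely expressed riboside kinase, had 6.82 ± 1.08 RPKM in low PAP, 4.97 ± 0.626 in PH-healthy and 5.32 ± 1.57 in PH-failure. It fell over all animals with pulmonary hypertension (-0.35; limma adjusted p = 0.0456) and was called in neither group alone. In low PAP its mean was thus far under that of ITGB1BP3 on the per-length scale. Those of the list that did not pass the test in any comparison included NMNAT2 at 0.981 RPKM in low PAP, QPRT at 1.64, NADSYN1 at 3.07, the NAD kinases NADK at 9.87 and NADK2 at 8.79, and the mitochondrial NAD carrier SLC25A51 (listed as MCART1) at 7.43. The 9 untested genes had group means under 1 RPKM and included HAAO, KMO, KYNU, TDO2 and ACMSD of the kynurenine route from tryptophan. The median difference of the 13 was 0.16 in PH-failure and 0.21 in PH-healthy, beside 0.21 and 0.18 for all genes.

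Of the 4 other sirtuins 0 were called by limma in any comparison; 1 had an unadjusted p under 0.05 in PH-failure and 0 in PH-healthy, and limma-voom called 0 in each and 1 over all animals with pulmonary hypertension. SIRT2, mainly cytoplasmic, had 31.9 ± 2.88 RPKM in low PAP and differences of 0.09 in PH-healthy and 0.22 in PH-failure (limma adjusted p = 0.538 and 0.126). Mitochondrial SIRT4 had 5.65 ± 0.429 and differences of -0.14 and -0.19 (adjusted p = 0.389 and 0.218). Nuclear SIRT6 had 1.77 ± 0.110 in low PAP and 2.29 ± 0.113 in PH-failure, where its 3 libraries lay above all of low PAP, as held for 18.6% of all genes tested (0.25; adjusted p = 0.0685). SIRT7 had 3.37 ± 0.347 and differences of -0.09 and 0.14. After quantile normalization SIRT4 was called lower in PH-failure and SIRT7 in PH-healthy, at -0.49 and -0.40 (adjusted p = 0.0303 and 0.0392).

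For genes that write and erase ADP-ribose the direction of the calls depended on the scale. Of 24 listed, 19 were tested; 9 rose and 2 fell in PH-failure, where 28.0% of all genes were called higher and 5.79% lower, and 6 rose and 2 fell in PH-healthy, where the shares were 26.6% and 8.15%. After quantile normalization 2 rose and 4 fell in PH-failure, and without PH-failure replicate 3 it was 3 and 0. The tankyrase TNKS, a polymerase that acts at telomeres and in Wnt signalling, rose from 1.44 ± 0.473 RPKM (SD, n = 6) to 3.67 ± 0.525 (SD, n = 3) in PH-healthy (0.95; limma adjusted p = 0.00254) and 3.27 ± 0.814 (SD, n = 3) in PH-failure (0.81; adjusted p = 0.00639). Its libraries lay above low PAP in both groups, as held for 25.0% of all genes tested in PH-healthy and 18.6% in PH-failure. TNKS stayed called under quantile, median-ratio and voom scaling. ADPRHL1, a heart-enriched relative of the ADP-ribose hydrolases, had 84.0 ± 15.6 in low PAP and rose by 0.53 and 0.60; with median-ratio scaling these were 0.30 and 0.33 and not called (limma adjusted p = 0.171 and 0.138), nor were they with limma-voom (0.118 and 0.0890). MACROD1, which removes mono-ADP-ribose, fell from 121 ± 20.8 to 75.7 ± 2.54 in PH-healthy (-0.65; adjusted p = 0.0304) and had 75.7 ± 29.5 in PH-failure (-0.72; adjusted p = 0.0219, and 0.120 without replicate 3). PARP2, the close relative of PARP1, had 10.3 ± 0.906 in low PAP, 8.05 ± 0.668 in PH-healthy and 9.42 ± 2.77 in PH-failure, and was not called (-0.32 and -0.15; adjusted p = 0.0926 and 0.431).

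Of 4 listed genes of NAD breakdown and nicotinamide clearance, 2 were tested and 0 were called, by limma, by its unadjusted p or by limma-voom. CD38, the main NAD glycohydrolase of immune and endothelial cells, had 1.16 ± 0.338 RPKM in low PAP, 1.99 ± 1.03 in PH-healthy and 1.39 ± 1.05 in PH-failure. AOX1, which oxidizes nicotinamide metabolites, had 31.2 ± 9.96, 24.0 ± 6.24 and 43.8 ± 24.3. SARM1, a NAD-splitting enzyme of neurons, had at most 0.678 RPKM and was not tested, and NNMT was not analysed here.

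Genes that supply NADPH, the product of NNT, included 3 that rose and 1 that fell in PH-failure, of 11 tested, and 3 that rose and 0 that fell in PH-healthy. The counts that rose were near the share of all genes called higher, 28.0% in PH-failure and 26.6% in PH-healthy. MTHFD2, of mitochondrial folate metabolism, rose in PH-failure (0.70; limma adjusted p = 0.0100, and 0.0577 without replicate 3). The malic enzyme ME1 fell there (-0.40; adjusted p = 0.0323, and 0.154 without replicate 3). ME3, the mitochondrial malic enzyme, rose in PH-healthy from 20.9 ± 3.58 to 28.3 ± 3.11 (0.43; adjusted p = 0.0333) and had 19.7 ± 1.33 in PH-failure. IDH2, the most abundant of the list, had 499 ± 49.9 in low PAP and was not called. With median-ratio scaling 0 rose and 2 fell in PH-healthy.

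Genes of the NADH shuttles and lactate dehydrogenase gave 2 that rose and 4 that fell of 12 tested in PH-failure, where 28.0% of all genes were called higher and 5.79% lower. In PH-healthy limma called 0, where 3 had an unadjusted p under 0.05 and limma-voom called 2. LDHA, the muscle form of lactate dehydrogenase, rose in PH-failure from 302 ± 43.0 RPKM to 477 ± 159 (0.62; limma adjusted p = 0.0241). LDHB, the heart form, fell there by 0.44 (adjusted p = 0.0443), as did SLC25A12, the aspartate-glutamate carrier, by 0.71 (-0.71; adjusted p = 0.0194). Without PH-failure replicate 3, the library with the low muscle sum, 0 of the 12 were called in PH-failure. With median-ratio scaling 0 rose and 7 fell. The median difference of the 12 was -0.26 in PH-failure and -0.13 in PH-healthy, below that of all genes.

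Because ITGB1BP3 is also named for its binding to integrin beta 1, genes of the integrin and laminin adhesion of muscle were read alongside. Of 8 tested, 7 rose in PH-failure and 5 in PH-healthy, and 0 fell; of all genes, 28.0% and 26.6% were called higher. LAMA2, the laminin chain of the muscle basement membrane, rose from 15.8 ± 5.37 RPKM to 64.3 ± 10.9 in PH-healthy (2.00; limma adjusted p = 0.000265) and 56.3 ± 16.0 in PH-failure (1.78; adjusted p = 0.000892). ITGA7, the muscle laminin receptor subunit, rose from 23.5 ± 3.22 to 33.3 ± 2.69 and 37.0 ± 4.11 (0.49 and 0.64; adjusted p = 0.0111 and 0.00440). ITGB1 itself had 109.7 ± 16.7 in low PAP, 143 ± 15.5 in PH-healthy (0.38; adjusted p = 0.142) and 172 ± 67.7 in PH-failure (0.59; adjusted p = 0.0355, and 0.191 without replicate 3). With median-ratio scaling 3 rose in PH-failure and 1 in PH-healthy; LAMA2 was called in both. Summed endothelial markers ran from 53.4 to 107.9 RPKM in low PAP and from 108.1 to 171 with pulmonary hypertension. Of the 6 markers, limma called 5 higher and 1 lower over all animals with pulmonary hypertension. CLDN5 went against the sum, at means of 8.65 in low PAP, 4.82 in PH-healthy and 6.36 in PH-failure. The part of endothelium in these counts was not tested.

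**Figure D5:**
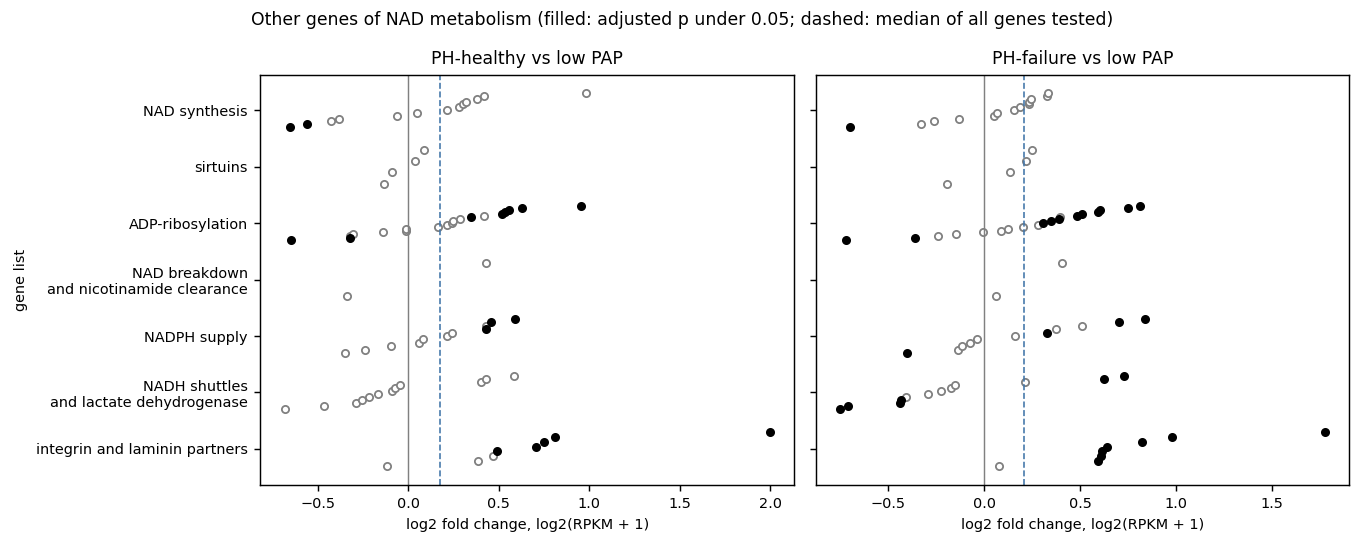
Differences of the other genes of NAD metabolism and of the integrin and laminin partners in PH-healthy and PH-failure against low PAP, on the log2(RPKM + 1) scale; each point is a gene, filled where it passed the adjusted test, and the dashed line is the median of all genes tested. LAMA2, at 2.00 and 1.78, is the rightmost point of both panels, and the called genes of NAD synthesis all lie left of 0.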

How the data were processed

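Right ventricle RNA was extracted with Trizol and made into standard Illumina libraries, per the labels' protocols. The authors deposited 1 table of RPKM for 24616 genes and 12 libraries, per the file headers, with positions, mean levels, a fold, a p-value and a false discovery rate. Aligner, counting, strand, build and test: not given in the sources used here. Whole reads were recovered from the RPKM steps for 11374 of the 11374 genes tested (within 0.05 reads; median 370 reads in a gene of a library) and used for depth and as an alternative. Groups came from the labels. Tests used limma 3.58.1 (trend and robust) in R 4.3.3 on log2(RPKM + 1), all 12 libraries in 1 model, genes of at least 1 RPKM in at least 3 libraries, and Benjamini-Hochberg adjustment over all of them; the script was tested on simulated data. Replicates are different animals. Alternatives were quantile and median-ratio scaling, limma-voom on the recovered reads, a pseudocount of 0.1, no filter, library series, adipocyte score or replicate number in the model, and leaving out each library. The genes named are the members, 16 genes set in the lists, up to 3 called genes per direction with the smallest p in each list, and the 6 most and 4 least correlated with ITGB1BP3. The members and lists were chosen with earlier results of these data known. RefSeq (ARS-UCD2.0) names matched 9 of the 10 members. Sequences are not shown. A gene of the NADPH list is counted but not reported here by name.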

Additional observations from a re-analysis of the deposited data

Results flagged for a closer look

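A single low PAP library lay far from the others of its group for BST1: replicate 4, at 0.0362 RPKM, which is 1 read, where the other 5 had 0. At 1 read this is no sign of a difference between animals. It was the 1 case among 14 groups of 6 values examined for the members and their ratios. With 5 values of 0 any single read is marked, so the usual rate of about 1 in 20 does not apply to it.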

How the results depend on the processing

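The number of the 8 members called in PH-failure against low PAP was 0, and became 1 after quantile normalization, 4 after median-ratio scaling, 3 with limma-voom on recovered reads and 1 with library series as a term. Leaving out 1 library gave 0 to 1: 1 without PH-failure replicate 1 (SIRT3) or 3 (SIRT5). In PH-healthy the count of 2 became 3 after median-ratio scaling (PARP1 added), 1 once the adipocyte score entered the model, and 0 to 2 leaving out 1 library. Over all animals with pulmonary hypertension the count of 2 became 4 after median-ratio scaling, and 1 to 3 leaving out 1 library. PH-failure against PH-healthy stayed at 0 in every setting run. The cause of these changes was not tested. Replicate numbers mark different animals: same-numbered libraries deviated from their group means with r from -0.26 to 0.19 over 9 pairs. With the replicate number as a block 0 members were called in each comparison, PH-healthy and all animals with pulmonary hypertension included, and NAMPT turned to 0.11 in PH-failure and 0.058 in PH-healthy.

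Small uncalled differences changed sign. Against low PAP in PH-failure, quantile, median-ratio and voom scaling gave -0.057, -0.10 and -0.041 for NMNAT1, -0.19, -0.068 and -0.090 for NMNAT3, and -0.0012, -0.27 and -0.23 for NNT, which was -0.015 with library series. In PH-healthy SIRT5 was -0.23 (median-ratio), -0.19 (voom) and -0.022 (library series). In PH-failure against PH-healthy the adipocyte term gave 0.069 for ITGB1BP3, 0.026 for NMNAT1 and 0.11 for NMNAT3, and PARP1 was -0.042, -0.029, -0.030 and -0.025 with quantile, median-ratio, voom and library series. Leaving out 1 library gave, in PH-failure against low PAP, -0.48 to 0.098 for NAMPT, -0.098 to 0.18 for NNT and -0.17 to 0.032 for PARP1; in PH-healthy -0.066 to 0.10 for SIRT5; and in PH-failure against PH-healthy -1.48 to 0.35 for ITGB1BP3, -0.22 to 0.36 for NAMPT, -0.029 to 0.33 for SIRT3 and -0.096 to 0.11 for PARP1.

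The ITGB1BP3 difference of PH-failure from low PAP ranged from -3.37 to -1.54 over the alternatives; its direction was fixed by how the gene was chosen. Depth limits BST1, at no more than 4 reads, and NMNAT3, at 49 to 94. SIRT5 in PH-failure was called without PH-failure replicate 3, and with it under median-ratio scaling and limma-voom. The order of the 2 groups with pulmonary hypertension for ITGB1BP3 turned without that library.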
